A study of Mus musculus with 7 samples.

Results

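The DNA damage response and repair genes are 38 genes of the 39179 in the authors' deposited table, chosen by a list of symbols and grouped here by role. Of these, 11 act in homologous recombination, 10 in the Fanconi anaemia pathway, 3 in mismatch repair, 4 in end joining and 10 in checkpoint signalling and damage sensing. They were measured in regulatory T cells, a suppressive class of CD4 T cell defined by the factor Foxp3, sorted as CD4+ TCRb+ CD25hi Foxp3+ cells from lymph nodes of C57BL/6 mice aged 3 weeks. In the numbered libraries the double-knockout group (dKO) had the genotype Id2fl/flId3fl/flFoxp3cre and 3 libraries, and the control group had Id2fl/+Id3fl/+Foxp3cre and 2 libraries. The series' design text gives the dKO mice 2 copies of the Cre allele. Both groups thus carry the Foxp3-driven Cre recombinase, and the controls also carry 1 floxed allele of Id2 and of Id3, which encode inhibitors of E protein transcription factors. A further pair of unnumbered libraries, 1 labelled dKO and 1 labelled control, has genotype tags that are the reverse of its titles, so those libraries are called by their titles. No label says which animal a library came from, so the p-values reflect only how these libraries vary. For the 3 dKO libraries that variation may be technical, while the 2 control libraries differ in Y-linked RNA, with values given further on.

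DNA is damaged whenever cells replicate it, and lymphocytes also cut it on purpose when they assemble antigen receptor genes. Broken ends are either copied from the sister chromatid by homologous recombination, which works in S and G2 phase, or ligated directly by non-homologous end joining. The Fanconi anaemia proteins repair crosslinked strands met by the replication fork, mismatch repair corrects copying errors behind it, and the kinases ATM and ATR halt the cycle while repair proceeds. Many genes of recombination and of the Fanconi pathway are known to be transcribed mainly in dividing cells, under E2F factors.

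Promoter windows of 4 of the genes that rose are printed to show the letters described further on, since these genes were called in the same direction. They are, among the members with a window, those with the smallest adjusted p. Each window runs from 250 bases before to 50 bases after the gene's start in RefSeq (GRCm38.p6), 5′ to 3′ on the gene's strand. Only 1 window a gene was used, and its start can differ from the gene's start in the authors' deposited table. The Xrcc6 window lies inside that gene's span there (81987835 to 82040085), and so does the Fancc window in its own gene. Other starts were not searched. Capitals mark a match to an E2F-type motif, and a window in lower case throughout holds none. Xrcc6 lies at chr15:82016119-82016418 on the plus strand, Fanci at chr7:79392088-79392387 on the plus strand, Msh6 at chr17:87974800-87975099 on the plus strand and Rad54l at chr4:116123641-116123940 on the minus strand.
Xrcc6: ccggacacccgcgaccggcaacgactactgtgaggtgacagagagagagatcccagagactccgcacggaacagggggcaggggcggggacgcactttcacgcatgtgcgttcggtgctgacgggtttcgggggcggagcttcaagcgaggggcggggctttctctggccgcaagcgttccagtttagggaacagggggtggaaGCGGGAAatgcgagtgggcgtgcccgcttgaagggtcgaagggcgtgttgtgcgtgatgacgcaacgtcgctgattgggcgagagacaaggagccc
Fanci: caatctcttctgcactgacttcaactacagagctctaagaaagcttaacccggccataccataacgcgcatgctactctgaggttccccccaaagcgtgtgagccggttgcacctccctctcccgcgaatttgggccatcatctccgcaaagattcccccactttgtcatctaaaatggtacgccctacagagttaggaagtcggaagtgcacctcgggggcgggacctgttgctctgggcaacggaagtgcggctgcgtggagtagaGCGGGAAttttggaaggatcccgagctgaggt
Msh6: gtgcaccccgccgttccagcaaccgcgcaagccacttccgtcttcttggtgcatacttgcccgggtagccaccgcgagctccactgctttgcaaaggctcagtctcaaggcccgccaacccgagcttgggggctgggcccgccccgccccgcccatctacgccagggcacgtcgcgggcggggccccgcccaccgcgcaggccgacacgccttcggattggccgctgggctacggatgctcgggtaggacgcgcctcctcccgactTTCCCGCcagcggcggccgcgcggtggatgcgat
Rad54l: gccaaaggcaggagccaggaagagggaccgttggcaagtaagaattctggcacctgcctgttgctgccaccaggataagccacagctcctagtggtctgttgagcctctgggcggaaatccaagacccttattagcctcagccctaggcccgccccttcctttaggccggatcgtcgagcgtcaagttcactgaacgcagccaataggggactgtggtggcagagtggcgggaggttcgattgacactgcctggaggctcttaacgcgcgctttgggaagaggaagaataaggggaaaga

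Before the genes themselves, the libraries were checked. Id2 averaged 61.1 scaled counts in dKO and 783 in control in the authors' deposited table, with a log2 ratio of -3.68 and an adjusted p of 1.48e-08. Id3 averaged 891 in dKO and 1376 in control, with a log2 ratio of -0.63 and an adjusted p of 0.209 by the authors' deposited table. A scaled count is a read count divided by a size factor of its library. The table gives the mean of each group, without an SD, and the means sum to 3.99e+07 in dKO and 3.90e+07 in control. The 2 control libraries had size factors of 1.29 and 1.09 and are called the deeper and the shallower. They stand apart in Y-linked RNA, with 601 reads of Kdm5d and Uty in the deeper and 15 in the shallower. Foxp3 averaged 10942 scaled counts in dKO and 13481 in control, and of the 6 regulatory T cell markers measured, 0 passed the test in either direction. B cell, myeloid and CD8 T cell markers, 12 in all and none at 0, also had 0 genes past the test. Their summed scaled counts in dKO and in control were 1066 and 971 for the B cell list, 144 and 126 for the myeloid list, and 714 and 679.8 for the CD8 list.

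In dKO cells, 12 of the 38 repair genes rose, 0 fell and 26 did not pass the authors' test (adjusted p under 0.05, Benjamini-Hochberg, as found in the authors' deposited table). The 12 were Bard1, Rad51ap1, Rad54l, Rad54b and Exo1 of homologous recombination, Fanca, Fancc and Fanci of the Fanconi pathway, Msh6, Xrcc6, Lig4 and H2afx. Their log2 ratios of dKO over control lay between 0.55 and 0.99, with a median fold of 1.69, and all 12 also had an adjusted p under 0.01 in the authors' deposited table. Over all 31641 genes with a p, 3.38% were called higher and 3.18% lower. All 38 members had a mean of 100 or more scaled counts, and of the 10903 genes at that level 8.18% were called higher and 7.42% lower. The median log2 ratio was 0.41 over the 38 members, 33 above 0 and 5 below, and 0.00 over those 10903 genes. At an unadjusted p under 0.05, 20 members were higher and 0 lower, 8 of them not past the adjusted threshold, and 15.3% of genes with a mean of 100 or more were higher at that unadjusted p. In bulk RNA, fewer cells of a type and less RNA per cell cannot be told apart.

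**Figure D1:**
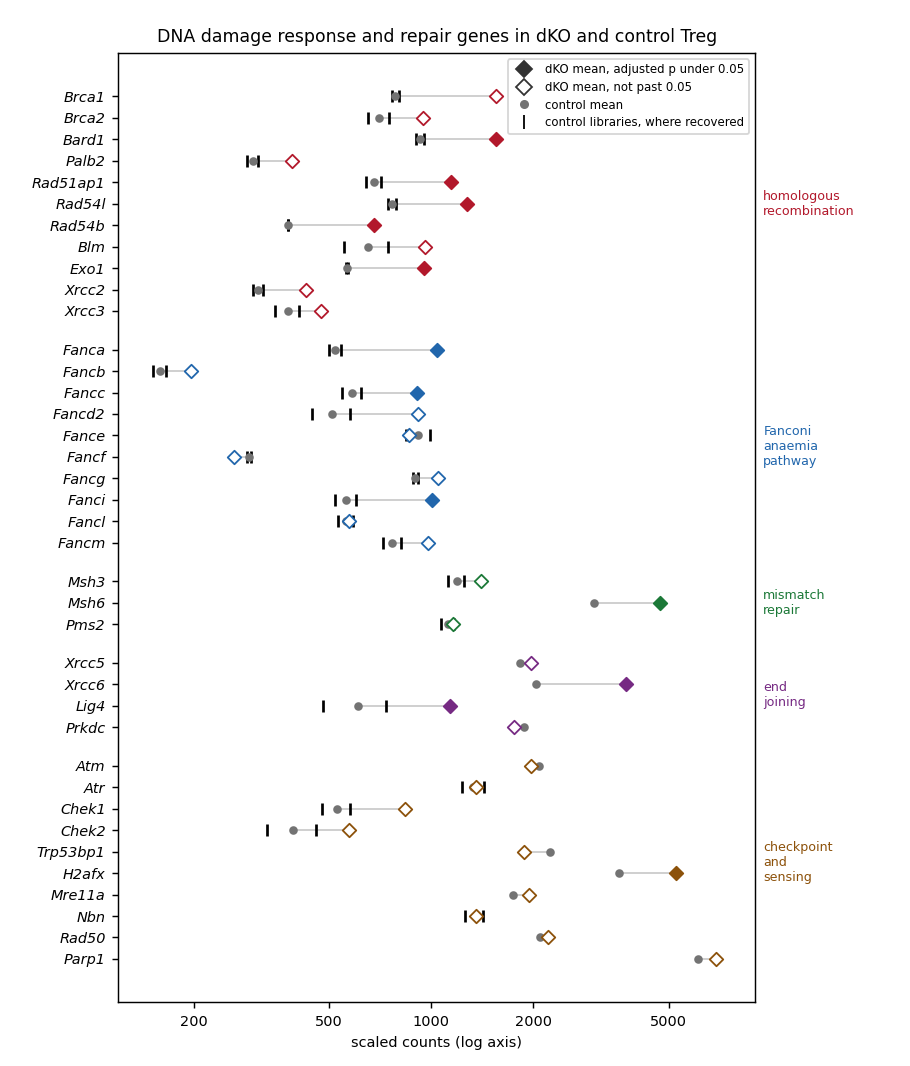
Mean scaled counts (log axis) of the 38 genes in dKO (diamonds, filled where the adjusted p in the authors' deposited table is under 0.05) and in control (grey circles), with the 2 control libraries as black ticks where their reads could be recovered. Filled diamonds sit to the right of the control mean in 12 genes and to the left in 0.

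Reads of each control library could be recovered for 28 members, so the dKO mean can be set against both libraries. It lay above both in 22 members, between them in 5 and below both in 1, which was Fancf. Of 5461 genes with a mean of 100 or more and such values, the dKO mean lay above both control libraries in 37.8% and below both in 43.8%. All 9 called members with library values were among the 22, which their calls made likely, since a call needs a dKO mean well above control. The control libraries lay within 1.5-fold of each other in 27 of the 28 members, with a median of 1.11-fold. Lig4 was the exception. Where more than 1 pair of whole read counts gave the control mean, the pair with the closest libraries was kept. Closeness in those members is thus set by the rule, and 19 of the 28 had 1 such pair. Of the 28, 10 were higher in the deeper library and 18 in the shallower. The 3 dKO libraries were given only as a mean, so their spread is not shown here except through the authors' p-values.

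Homologous recombination, the largest role group, gave 5 higher and 0 lower of 11. Beside this, 8.18% of genes with a mean of 100 or more were called higher. All 11 had a log2 ratio above 0, with a median of 0.73 and a range of 0.32 to 0.98. Those called act at different steps, and their values follow in that order. Bard1, the partner that forms a ubiquitin ligase with BRCA1, lies on chromosome 1 (71027498 to 71103146, GRCm38). It averaged 1557 scaled counts in dKO, against 905 and 954 in the deeper and shallower control libraries. Its log2 ratio was 0.74 with an adjusted p of 0.00840 by the authors' deposited table. Exo1 (chromosome 1, 175880778 to 175911396), an exonuclease that resects broken ends and also excises mismatched strands, averaged 955 in dKO, against 568 and 563 in control. Its log2 ratio was 0.76 with an adjusted p of 7.00e-04 by the authors' deposited table, and the control libraries differed by 1.01-fold.

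Of the recombination genes that rose, 3 serve the strand exchange itself. Rad51ap1 (chromosome 6, 126923050 to 126939587) encodes a protein that helps the recombinase filament pair with its template. It averaged 1147 scaled counts in dKO, against 644 and 710.4 in the deeper and shallower control libraries, with a log2 ratio of 0.76 and an adjusted p of 0.00550 by the authors' deposited table. Rad54l (chromosome 4, 116094264 to 116123690) and Rad54b (chromosome 4, 11558920 to 11615805) encode related motor proteins that move along DNA during that exchange. Rad54l averaged 1271 in dKO, against 747 and 790.0 in control, with a log2 ratio of 0.73 and an adjusted p of 3.66e-05 by the authors' deposited table. Rad54b averaged 681 in dKO, against 379 and 378 in control, with a log2 ratio of 0.85 and an adjusted p of 9.52e-06 by the authors' deposited table. In each of the 3 genes the control libraries lay close together and the dKO mean lay above both.

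The other 6 recombination genes did not pass the test. Brca1, which directs ends into recombination, had the second highest log2 ratio of the 38 genes. It averaged 1553 scaled counts in dKO, against 805 and 766 in the deeper and shallower control libraries. Its log2 ratio was 0.98, with a raw p of 0.00750 and an adjusted p of 0.0954 by the authors' deposited table. Its partner Bard1 thus passed at a smaller ratio, and the difference between the 2 genes was not tested. Brca2, which loads the recombinase, averaged 949.6 in dKO, against 654 and 752 in control, with a log2 ratio of 0.43 and an adjusted p of 0.701 by the authors' deposited table. Palb2, the bridge between BRCA1 and BRCA2, averaged 389.8 in dKO, against 310.2 and 287 in control, with a log2 ratio of 0.39. Blm, the helicase mutated in Bloom syndrome, averaged 962 in dKO, against 553 and 748 in control. Its log2 ratio of 0.56 had an adjusted p of 0.326 by the authors' deposited table, and was 0.36 without the deeper and 0.80 without the shallower control library. Xrcc2 and Xrcc3, paralogues of the recombinase, averaged 429 and 473 in dKO and 309 and 379 in control, with log2 ratios of 0.47 and 0.32. For all 6 genes the dKO mean lay above both control libraries.

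**Figure D2:**
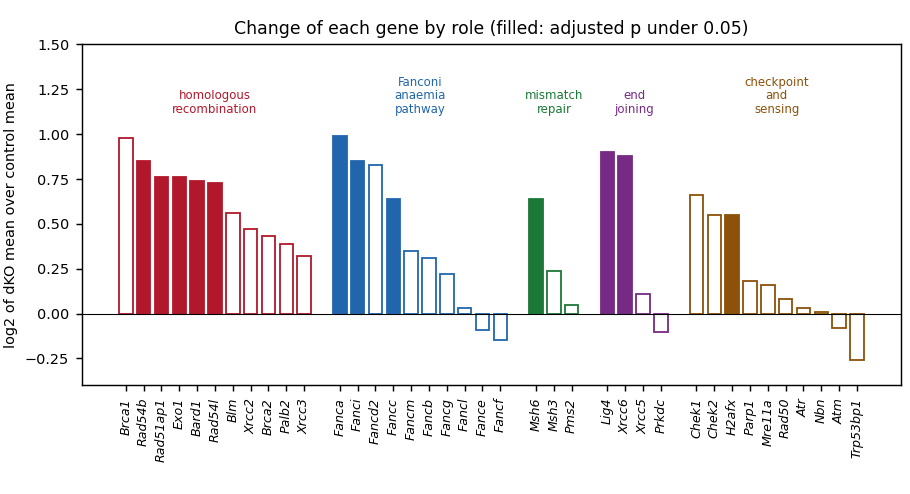
Log2 ratio of the dKO mean over the control mean for each gene, grouped by role and sorted within a role; filled bars have an adjusted p under 0.05 in the authors' deposited table. All 11 recombination genes are above 0, while the Fanconi, end joining and checkpoint groups hold 5 genes below 0, none of them filled.

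Of the 10 Fanconi anaemia genes, 3 rose, 0 fell and 7 did not pass, with a median log2 ratio of 0.33 and a range of -0.15 to 0.99. The genes of 1 complex did not share 1 value. Among the core complex, which attaches ubiquitin to the FANCD2 and FANCI clamp, Fanca and Fancc rose, while Fance, Fancf and Fancl had log2 ratios of -0.09, -0.15 and 0.03. Fanca (chromosome 8, 123268300 to 123318576) averaged 1038 scaled counts in dKO, against 543 and 501 in the deeper and shallower control libraries. Its log2 ratio of 0.99 was the highest of the 38 genes, with an adjusted p of 0.00200 by the authors' deposited table. Fancc (chromosome 13, 63304709 to 63497278) averaged 908 in dKO, against 623 and 545 in control, with a log2 ratio of 0.64 and an adjusted p of 0.00110 by the authors' deposited table.

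The clamp proteins themselves gave 1 call. Fanci (chromosome 7, 79391929 to 79450265) averaged 1009 scaled counts in dKO, against 521 and 601 in the deeper and shallower control libraries. Its log2 ratio was 0.85 with an adjusted p of 3.51e-05 by the authors' deposited table. Fancd2 had nearly the same ratio, 0.83, from 912 in dKO against 445 and 579 in control, and its adjusted p of 0.0509 by the authors' deposited table lay just above the threshold. Its control libraries differed by 1.30-fold and those of Fanci by 1.15-fold.

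Among the rest of the core complex, Fancl, the ubiquitin ligase subunit, averaged 573 scaled counts in dKO, against 533 and 588 in the deeper and shallower control libraries, so the dKO mean lay between them. Fance, which contacts FANCD2, averaged 863 in dKO, against 844 and 993, and also lay between them. Fancf averaged 263 in dKO, against 288 and 295 in control. It is the only member with library values whose dKO mean lay below both, and its adjusted p was 1 in the authors' deposited table. Fancb, on the X chromosome, averaged 197 in dKO, against 152 and 166 in control, and had the lowest means of the 38 genes. Fancg averaged 1050 in dKO, against 913 and 885 in control, and Fancm, a translocase that remodels stalled forks, averaged 977, against 721 and 813. Log2 ratios of Fancb, Fancg and Fancm were 0.31, 0.22 and 0.35, with adjusted p-values of 0.692, 0.670 and 0.660 in the authors' deposited table.

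Of the 3 mismatch repair genes, 1 rose and 0 fell, beside 8.18% of genes with a mean of 100 or more called higher. Msh6 (chromosome 17, 87975050 to 87990883) encodes the recognition subunit for single mismatches and short loops. It averaged 4712 scaled counts in dKO and 3026 in control, with a log2 ratio of 0.64 and an adjusted p of 8.00e-04 by the authors' deposited table. Msh3, the alternative subunit that recognises larger loops, averaged 1401 in dKO, against 1124 and 1251 in the deeper and shallower control libraries. Its log2 ratio was 0.24 with an adjusted p of 0.537 by the authors' deposited table. Pms2, the endonuclease subunit that nicks the new strand, averaged 1156 in dKO, against 1072 and 1164 in control, so its dKO mean lay between the control libraries.

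Of the 4 end joining genes, 2 rose and 0 fell, where 8.18% of genes with a mean of 100 or more were called higher. Xrcc6 (chromosome 15, 81987835 to 82040085) encodes Ku70, which with Ku80 clamps broken ends. It averaged 3750 scaled counts in dKO and 2035 in control, with a log2 ratio of 0.88 and an adjusted p of 1.20e-08 by the authors' deposited table, the smallest adjusted p among the 38 genes. Xrcc5, which encodes Ku80, averaged 1968 in dKO and 1826 in control, with a log2 ratio of 0.11 and an adjusted p of 1 by the authors' deposited table. The Ku subunits thus had unlike ratios, and the difference between the genes was not tested. Lig4 (chromosome 8, 9970020 to 9977686), the ligase that seals the ends, averaged 1134 in dKO, against 739 and 479 in the deeper and shallower control libraries. Its log2 ratio was 0.90 with an adjusted p of 0.00650 by the authors' deposited table, and was 1.24 without the deeper and 0.62 without the shallower library. Prkdc, the DNA-dependent kinase recruited by Ku, averaged 1758 in dKO and 1883 in control, with a log2 ratio of -0.10.

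Checkpoint and sensing genes gave 1 call in 10, near the 8.18% of genes with a mean of 100 or more that were called higher. Their median log2 ratio was 0.12. H2afx (chromosome 9, 44334715 to 44336071) encodes the histone variant that ATM and ATR phosphorylate around breaks. It averaged 5244 scaled counts in dKO and 3583 in control, with a log2 ratio of 0.55 and an adjusted p of 0.00140 by the authors' deposited table. The checkpoint kinase genes Chek1 and Chek2, which act below ATR and ATM, had log2 ratios of 0.66 and 0.55 without passing. Chek1 averaged 838 in dKO, against 477 and 579 in the deeper and shallower control libraries, with an adjusted p of 0.225 by the authors' deposited table. Chek2 averaged 575 in dKO, against 457 and 328 in control, with an adjusted p of 0.207 by the authors' deposited table. The Chek2 ratio was 0.81 without the deeper and 0.33 without the shallower control library.

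The sensors upstream had smaller ratios. Atm, the kinase that answers double-strand breaks, averaged 1967 scaled counts in dKO and 2083 in control. Atr, the kinase that answers single-stranded DNA, averaged 1359 in dKO, against 1236 and 1428 in the deeper and shallower control libraries. Their log2 ratios were -0.08 and 0.03. Mre11a, Rad50 and Nbn, which form the complex that first holds broken ends, had log2 ratios of 0.16, 0.08 and 0.01. Mre11a averaged 1938 in dKO and 1736 in control, Rad50 averaged 2211 in dKO and 2095 in control, and Nbn averaged 1355 in dKO, against 1426 and 1262 in the control libraries. Parp1, which marks nicks with poly(ADP-ribose), averaged 6904 in dKO and 6111 in control, with a log2 ratio of 0.18 and an adjusted p of 0.829 by the authors' deposited table. Trp53bp1, which protects ends from resection, had the lowest ratio of the 38 genes. It averaged 1872 in dKO and 2238 in control, with a log2 ratio of -0.26, a raw p of 0.0507 and an adjusted p of 0.375 by the authors' deposited table.

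Per kilobase of exon, the levels of the members spread widely. H2afx was highest, with 3865 scaled counts per kilobase in dKO and 2640 in control. Parp1 followed with 1795 in dKO and 1589 in control, and Msh6 had 1108 in dKO and 711 in control. Xrcc6 had 838 per kilobase in dKO and 455 in control. Xrcc5, the gene of its partner, had 770.2 in dKO and 715 in control, so in control it stood above Msh6 and Xrcc6, and in dKO below both. Fancb in dKO (66.2 per kilobase) and Rad54b in control (48.3) were the lowest. Rad54b had 86.8 in dKO, and Fancb had 53.3 in control. Among the abundant members, Msh6, Xrcc6 and H2afx passed the test, and Parp1 and Xrcc5 did not.

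Exons of some members are shared with a neighbour, and strandedness of the authors' counting is not given in the sources at hand. Shared exon bases were taken from a GENCODE annotation, whose exons can differ from those that the authors counted. Of the 38 members 23 overlap another gene, among them 9 of the 12 that rose. H2afx, Lig4 and Rad51ap1 do not. An overlap need not include exons: Bard1 and Exo1, which rose, share 0 exon bases with the genes they overlap. Xrcc6 shares 344 exon bases, 7.69% of its exons, with Desi1 on the opposite strand, which averaged 4438 scaled counts in dKO and 1872 in control (log2 ratio 1.25). Fancc shares 16.4% with Gm16133 on the opposite strand, which averaged only 1.08 in dKO and 1.62 in control. It also shares 2.21% with 2010111I01Rik on the opposite strand, which averaged 3246 in dKO and 1782 in control (log2 ratio 0.86). Desi1 and 2010111I01Rik moved the same way as the members, and their part in the members' values was not tested. Neighbours of 4 other called members had ratios near 0: Rad54l shares 15.4% of its exons with Lrrc41 (log2 ratio -0.08), Fanca 10.5% with Zfp276 (-0.09), Fanci 16.0% with Polg (0.07) and Msh6 0.782% with Fbxo11 (-0.06). Rad54b shares 35.8% of its exons with Fsbp on its own strand, which averaged 53.4 in dKO and 25.9 in control. Of near-identical copies elsewhere in the genome, 1 pseudogene of H2afx had reads, 4.03 in dKO and 1.69 in control. Adding them left the log2 ratio of H2afx at 0.55. Copies of Fancm, Msh3 and Pms2 have no value in the authors' data, so their reads are not known.

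Outside the 38, other genes of the same pathways were described from lists of 116 symbols, of which 115 matched. Of these, 16 rose, 2 fell and the median log2 ratio was 0.13. Beside them, 8.18% of all genes with a mean of 100 or more were called higher and 7.42% lower. Other homologous recombination genes gave 6 higher and 0 lower of 27, among them Dna2, a nuclease and helicase of resection, with 964 scaled counts in dKO and 588 in control (log2 ratio 0.71). Brip1, the helicase that binds BRCA1, had 1116 in dKO and 650.5 in control (log2 ratio 0.78). Other Fanconi genes gave 2 higher of 11, and these were Rfwd3, a ubiquitin ligase (5121 in dKO and 3630 in control), and Ube2t, the enzyme that works with FANCL (704 in dKO and 424 in control). Other mismatch repair genes gave 1 of 6, Lig1, which joins newly made strands, with 7116 in dKO and 4593 in control. Other checkpoint genes gave 1 of 23, which is not above that 8.18%. This was Clspn, the adaptor between ATR and CHK1, with 2923 in dKO and 1489 in control. Clspn thus had a log2 ratio of 0.97, against 0.66 for Chek1.

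Other end joining genes gave 2 higher of 10. Polq, the polymerase of microhomology-mediated joining, had 759 scaled counts in dKO and 382 in control (log2 ratio 0.99). Dntt, which adds bases without a template during receptor gene assembly, had 140.3 in dKO, against 11.7 and 21.1 in the deeper and shallower control libraries. In base excision repair 2 of 16 rose, Neil3 (1186 in dKO and 647 in control) and Fen1 (4228 in dKO and 2786 in control), both with roles at replicating DNA. Tdg, a thymine glycosylase gene, was called lower, with 189 in dKO and 957 in control, and is uncertain: 3 near-identical copies hold reads, and the sum with them was 2889 in dKO and 1855 in control. In nucleotide excision repair 1 of 16 rose, Rad23b (8196 in dKO and 5462 in control), and 1 fell. The gene that fell was Xpc, the lesion sensor that binds RAD23B, with 879 in dKO and 1544 in control (log2 ratio -0.81). Neither count is above the share of all genes with a mean of 100 or more (8.18% higher and 7.42% lower). Of 6 translesion synthesis genes 1 rose, Polh, with 1123 in dKO and 832 in control. All of these genes named as higher or lower had an adjusted p under 0.05 in the authors' deposited table.

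**Figure D3:**
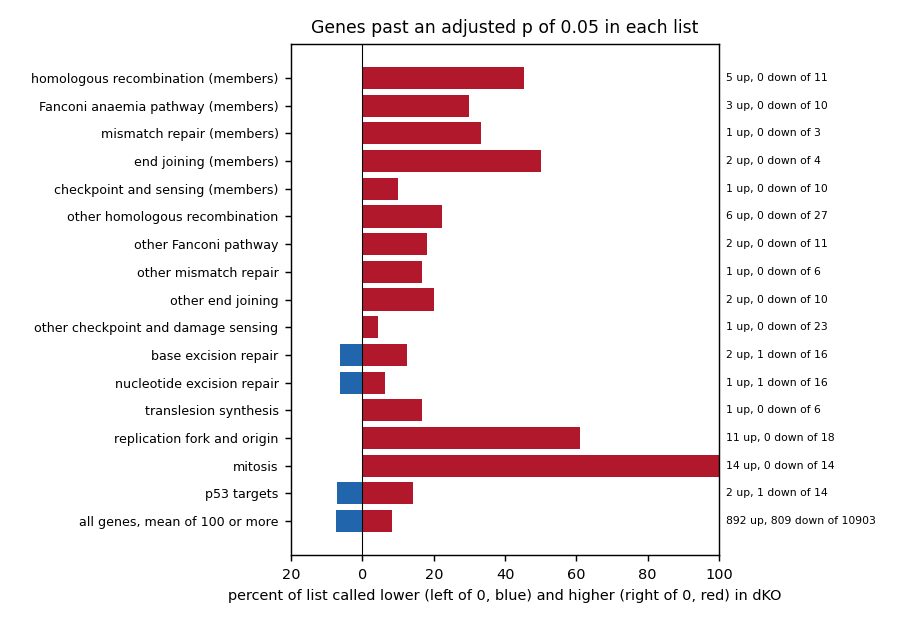
Percent of each list called higher (right of 0) and lower (left of 0) in dKO at an adjusted p under 0.05 in the authors' deposited table, with the counts written beside each bar. Among the members the bars run from 1 of 10 checkpoint genes to 2 of 4 end joining genes; all 14 mitosis genes are called higher, and the bottom row gives all genes with a mean of 100 or more.

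Many genes of the cell cycle were also called higher in dKO. Of 18 replication fork and origin genes, 11 rose and 0 fell, with a median log2 ratio of 0.58, and of 14 mitosis genes all 14 rose, with a median of 1.05. Mki67, a marker of dividing cells, averaged 25001 scaled counts in dKO and 11467 in control, with a log2 ratio of 1.12 and an adjusted p of 0.0495 by the authors' deposited table. The median of the 11 recombination members was 0.73, and that of the 10 checkpoint and sensing members was 0.12. What part the share of dividing cells has in these values was not tested. Of 14 p53 target genes, 2 rose and 1 fell, with a median of 0.16. Among all genes with a mean of 100 or more, 8.18% were called higher and 7.42% lower.

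Promoter windows were on file for 30 of the 38 members, 9 of them called. Members without one were Exo1, Fancd2, H2afx, Nbn, Prkdc, Rad50, Rad54b and Xrcc2. E2F-type letters (TTGGCGC, or else TTCGCGC, or else TTCCCGC, or else TTGCCGC, on either strand) were found in 18 of the 30 windows (60%), against 18.4% of 7918 windows of genes with a mean of 100 or more and 9.69% of all 27025 windows. A match was held by 6 of 9 called members (66.7%) and by 12 of 21 members not called (57.1%). In the windows printed above, the match GCGGGAA begins 46 bases before the start of Xrcc6 and at base 19 after that of Fanci, and TTCCCGC begins at base 17 after that of Msh6. Rad54l, Fanca and Fancc rose and had no match in their windows, while Atm, Fancf and Pms2 had a match and did not pass the test.

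CCAAT, on either strand, was found in 63.3% of the members' windows and in 39.9% of those of genes with a mean of 100 or more. TTTGAA, the letters of the cell cycle homology region, was found in 1 member's window, that of Bard1 (3.33%, against 11.7%). CANNTG, the E-box letters that E proteins bind, was found in 50% of the members' windows, against 62.2% of those of genes with a mean of 100 or more. Among members the share was 55.6% of those called and 47.6% of those not called. The motifs were searched separately and may overlap, and a match is a description of letters, not of binding.

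**Figure D4:**
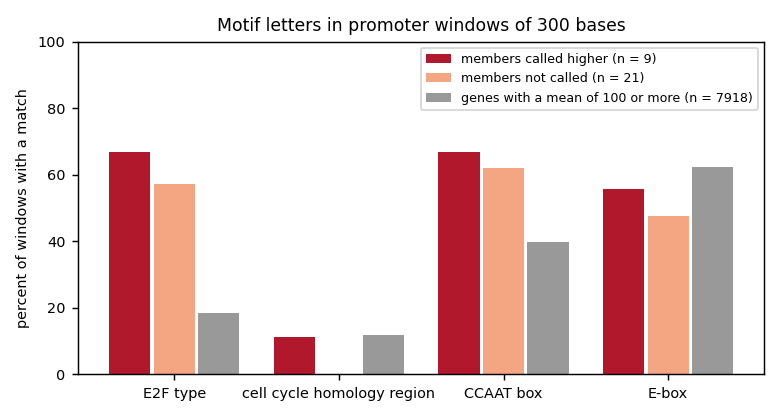
Percent of promoter windows of 300 bases with at least 1 match to each motif, in members called higher (9 windows), members not called (21 windows) and genes with a mean of 100 or more (7918 windows). E2F-type letters stand at 66.7%, 57.1% and 18.4%, and E-box letters at 55.6%, 47.6% and 62.2%.

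The members were also read in the unnumbered pair. Its values are FPKM, fragments scaled by transcript length and library depth, with 1 library a side, so no test of the conditions can be made. Id2 had 9.69 FPKM in the library labelled dKO and 18.6 in the library labelled control. Id3 had 221 in the library labelled dKO and 159.8 in the library labelled control. The libraries also differ in Y-linked Kdm5d (0 and 4.91 FPKM) and in Xist (29.0 and 0.0323 FPKM), the library labelled dKO first. The genotype tags contradict the titles. With the libraries called by title, Mki67 had 46.2 FPKM in the library labelled dKO and 23.4 in the library labelled control, and the log2(FPKM + 1) ratio was 0.95 for Mki67, 0.92 for Clspn, 1.13 for Dntt and -0.66 for Xpc. These 4 ratios and that of Id2 have the sign of the numbered libraries, and those of Id3 (0.47) and Tdg (1.71) do not. Tdg, whose lower call is uncertain because of its copies, had 3.10 FPKM in the library labelled dKO and 0.252 in the library labelled control. The part of dividing cells in the members' values was not tested in the pair either. All 38 members had 1 FPKM or more, with a median of 7.11 in the library labelled dKO and 5.74 in the library labelled control.

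On the log2(FPKM + 1) scale, which understates the change of low genes, the median of the 38 members was 0.17, against 0.00 for 10776 genes. Of the 38 members, 5 had a ratio of 0.5 or more, which is near the 11.4% of all genes that did. At -0.5 or less there were 0 members and 13.4% of all genes. The 5 were Blm (8.16 FPKM in the library labelled dKO and 4.54 in the library labelled control), Brca1 (5.96 and 3.31 in the same order), Rad51ap1 (17.2 and 10.4), Xrcc6 (54.7 and 34.6) and Fanca (5.94 and 3.88). Of these, Rad51ap1, Xrcc6 and Fanca were also called in the numbered libraries. The 12 genes called there had a median of 0.42 in the pair, 11 of them above 0, and the 26 others had a median of 0.09, 15 of them above 0. Fanci was the exception among the called, with 4.50 FPKM in the library labelled dKO and 4.73 in the library labelled control. Across the 38 genes the ratios of the pair and of the numbered libraries had a Pearson r of 0.64 and a Spearman rho of 0.66. Over 9326 genes with a mean of 100 or more, r was 0.63. These are correlations across genes, which are not independent replicates.

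Of the members, H2afx had the highest FPKM in the pair, with Parp1 and Xrcc6 next. H2afx had 139.9 FPKM in the library labelled dKO and 129.6 in the library labelled control, and Parp1 had 52.8 in the library labelled dKO and 58.1 in the library labelled control. Fancb was lowest, with 1.92 and 1.49 in the same order. Rad54l was split over 3 transcript entries that differed between the libraries. One entry had 7.66 FPKM in the library labelled dKO and 0.0559 in the library labelled control, while another had 0.00439 in the library labelled dKO and 3.43 in the library labelled control. Their sum with the remaining entry was 8.54 in the library labelled dKO and 5.89 in the library labelled control. Of 48 member entries, 0 had a q-value under 0.05 in the authors' deposited table of the pair, and the lowest was 0.632. Over all 27901 entries, 23 did.

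**Figure D5:**
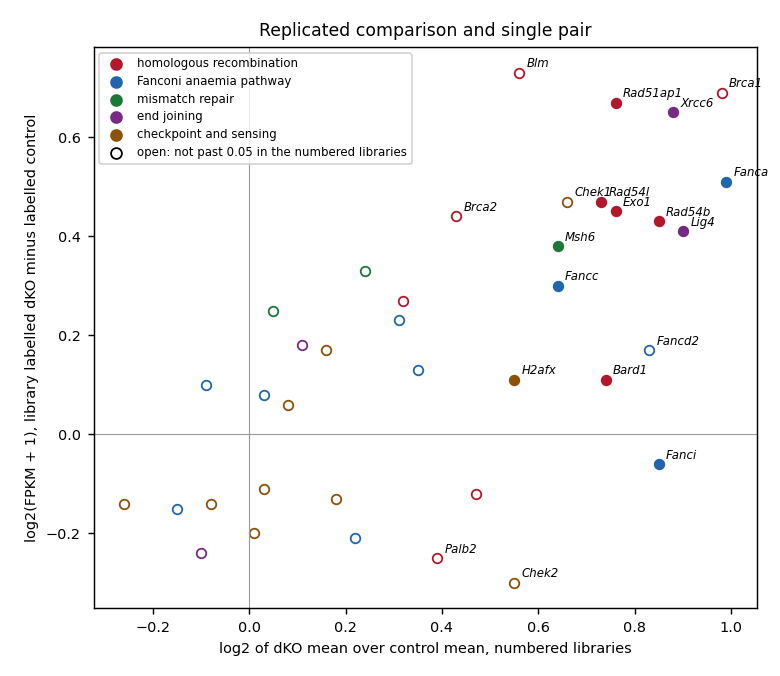
Each gene's log2(FPKM + 1) ratio in the unnumbered pair (vertical) against its log2 ratio in the numbered libraries (horizontal), filled where the adjusted p in the authors' deposited table is under 0.05. Most filled points lie above 0 on both axes, and Fanci lies at -0.06 on the vertical axis.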

How the data were processed

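Messenger RNA was measured in 7 libraries, 3 dKO and 2 control with replicate numbers and 1 of each without. For the numbered libraries the authors deposited, per gene, a signal column for each group. Its values are group means of size-factor-scaled reads, with 4 decimals. The authors' deposited log2 values are ratios of these means, the deposited signed fold is a score, and the deposited p-values are raw and Benjamini-Hochberg adjusted. Recomputed log2 ratios (genes with a mean of 10 or more) and adjusted p-values differed from the deposited ones by at most 8.22e-05 and 0.00124. RSEM and DESeq on mm10 (GRCm38) are named without versions, per the submitters' processing notes. For the pair, the authors deposited FPKM and p-values from Cuffdiff (its version given as 0.0.6) after TopHat 1.4.0 on mm9, per the submitters' processing notes. Tests per library had been planned, but the deposited means allow none, so the authors' test is used and no SD is given. The numbers of the libraries could not be used to pair them.

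Control reads per library were recovered as the whole numbers that, divided by the size factors, average to the deposited mean within 6e-05. Values are given for control means under 1500 with 1 solution, or with every other solution putting the libraries over 3-fold apart. Of 28 members 19 had 1 solution, and the smallest such fold among the others was 3.24. Of 3388 moderately expressed genes with 1 solution, 0.856% had libraries over 3-fold apart. Which control number is the deeper library is not known. Counting error at these depths is small, but PCR reads without molecular identifiers are not independent molecules.

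The members and lists were chosen with earlier results of these data known. All 38 members are named, with full values for those past an adjusted p of 0.05. Of each list of other repair genes, up to 3 called genes with the smallest adjusted p are named. Values of members without 1 control library were chosen after they were seen. Some genes that this rule takes are not reported here. FPKM was summed over a gene's entries, with a pseudocount of 1 FPKM and a minimum of 1 FPKM. Copies were searched at 95% identity over 200 bases. A planned search of protein sequences was not run. Python 3.11.15, pandas 2.3.3, numpy 2.4.6 and matplotlib 3.10.9 were used.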

Additional observations from a re-analysis of the deposited data

How the results depend on the processing

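The 12 members called higher were 12 at an adjusted p of 0.01 and with a minimum log2 ratio of 0.5. They were 15 at 0.1, and 15 with p-values adjusted again over genes whose mean is at least 10 (Brca1, Fancd2 and Xrcc2 joined both times). Without genes that overlap another, 15 members and 18508 genes with a p were left, and 3 members were called higher. In that setting 644 of all genes were higher and 594 lower, and of the other repair genes 10 were higher and 1 lower. Of all genes, 764 were higher and 669 lower at 0.01, 1278 were higher at 0.1, and 1260 were higher with a mean of 10 or more. Of the other repair genes 4 were lower at 0.1, and also 4 with a mean of 10 or more. Members called lower stayed at 0 in all of these settings. The members' median log2 ratio of 0.41 ranged from 0.35 to 0.42 over its alternatives. Over the 28 members with control library values it was 0.51, and 0.43 to 0.53 with 1 control library left out, a setting added after seeing the data. Dividing by the sums shifted every log2 ratio by -0.04, and centring took off a median of -0.01. None of the 12 called members, at 0.55 or more, could thus change sign. Of the 12, 9 have control library values and kept their sign without either control library. Their log2 ratios were 0.69 to 1.24 without the deeper and 0.54 to 0.95 without the shallower. This too was likely beforehand, since calls favour large ratios and the control libraries of these 9 lay at most 1.54-fold apart. Signs changed only in members not called: Atr and Nbn with means divided by their sums, Fancl, Pms2 and Atr without the deeper control, and Fance and Nbn without the shallower. In the pair, the 5 members at 0.5 or more were 10 with a pseudocount of 0.1 FPKM and 2 with 5 FPKM, and the median of 0.17 was 0.10 with 5 FPKM. Fewer genes enter without overlaps; for the other values that moved the cause was not tested. No paired analysis was possible because values per numbered dKO library were not to hand, and calls without each replicate were not run for the same reason.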

Other observations

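Of the 14 p53 target genes, the 3 past the authors' test were named after their values were seen. Cdkn1a, which encodes the cell cycle inhibitor p21, averaged 615 scaled counts in dKO, against 189 and 156 in the deeper and shallower control libraries, with a log2 ratio of 1.84 and an adjusted p of 8.36e-09 by the authors' deposited table. Pmaip1, which encodes the death protein NOXA, averaged 1864 in dKO, against 693 and 383 in control, with a log2 ratio of 1.79 and an adjusted p of 0.00120 by the authors' deposited table. Tnfrsf10b, a death receptor gene, averaged 206 in dKO, against 286 and 400.1 in control, with a log2 ratio of -0.74 and an adjusted p of 0.0368 by the authors' deposited table. The other 11 targets did not pass, and the median of the 14 was 0.16.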
